A study of Mus musculus with 6 samples.

Results

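Interferon-stimulated genes are the antiviral and immune genes that cells switch on when interferon reaches them, and 31 of them were followed here through RNA sequencing of a mouse leukemia exposed to CCL5 or kept as control. The members were taken by symbol from a fixed list of classical type I interferon response genes, and all 31 were found among the 23337 genes of the count table. Of these, 27 had enough reads to be tested and 4 (Ifit1, Oasl1, Rtp4 and Ifi44) did not. The rule used symbols and no measured value, but the list was chosen with earlier results of these data known.

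Type I interferons bind a receptor made of IFNAR1 and IFNAR2. The kinases JAK1 and TYK2 on that receptor phosphorylate STAT proteins such as STAT2, which join IRF9 and bind a promoter motif called the interferon-stimulated response element. Myeloid cells keep a low tonic level of this programme and raise it after viral RNA, DNA or interferon is sensed. Several members, among them Irf7, Stat2 and Irf9, belong to the machinery that amplifies the response, and others such as Usp18 damp it.

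The study had 6 libraries of polyadenylated RNA from leukemia described as primary, neonatal and murine, 3 treated with CCL5 (a chemokine) and 3 under control conditions, and the series title places it in MLL-rearranged leukemia. The labels put ccl5 replicate 1 in a tertiary transplant (source name neo30ccl5) and ccl5 replicates 2 and 3 (neo10ccl5) and control replicate 3 (neo10ctrl) in a primary transplant. They give no transplant stage for control replicates 1 (neo_control) and 2 (negative), and no mouse strain, age, dose or length of exposure for any library. Separate animals or cultures are not mentioned, and the p-values therefore measure only the spread between these libraries. Part of that spread may be technical. Libraries of the ccl5 group also differed in reads of Y-linked genes (5103 in replicate 2 and 0 in replicates 1 and 3).

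Before any comparison of treatments, the libraries fell into 3 alike pairs, of which ccl5 replicate 2 with control replicate 3 crossed the treatment labels. Gene counts summed to between 13421100 and 18445095 per library. Over all tested genes the Pearson correlation of log2 values was 0.995 between ccl5 replicates 1 and 3, 0.997 between ccl5 replicate 2 and control replicate 3, and 0.997 between control replicates 1 and 2, against 0.841 to 0.902 for every other pair. No reads of 4 Y-linked genes were counted in ccl5 replicates 1 and 3, while the other 4 libraries had 5103 to 7777. The source name of ccl5 replicate 3 is that of ccl5 replicate 2, yet its values lay beside those of ccl5 replicate 1. Marker levels differed along the same pairs: summed neutrophil and promyelocyte markers were 15700 and 15470 CPM (counts scaled to library size with TMM factors) in ccl5 replicate 2 and control replicate 3, 808.5 and 781.5 in ccl5 replicates 1 and 3, and 2919 and 2975 in control replicates 1 and 2. Summed monocyte and macrophage markers were 4504 and 4913 CPM in the first of these pairs, 22910 and 26530 in the second and 13020 and 12760 in the third. Lyz2 alone gave 14720 and 17560 CPM of the sums in ccl5 replicates 1 and 3. Not every marker of this list followed the sum. Ccr2 was highest in control replicates 1 and 2, at 921.1 and 904.7 CPM, against 456.4 and 499.8 in ccl5 replicates 1 and 3. The part of these differences in any result below was not tested, and in bulk RNA fewer cells of a type and less RNA per cell cannot be told apart. The leukocyte gene Ptprc (521.6 to 782.0 CPM) and the MLL target Hoxa9 (81.8 to 191.6 CPM) were present in every library. The list of MLL-type leukemia markers that holds both summed to 1502, 1375 and 1443 CPM in ccl5 replicates 1, 2 and 3. It summed to 2148, 2112 and 1416 CPM in control replicates 1, 2 and 3. Of its 6 tested genes 5 had a negative fold change (ccl5 over control), with 0 called. For 3 every ccl5 library lay below every control library, against 7.49% of all tested genes. The T cell genes Cd3e and Cd3g and the B cell gene Ms4a1 stayed under 0.15 CPM in each, but other genes of these lists were detected: Nkg7 reached 60.4 and 66.6 CPM in ccl5 replicate 2 and control replicate 3 (0.636 to 2.45 elsewhere), and Cd79b measured 10.5 to 15.9 CPM. Of the plasmacytoid dendritic cell markers Siglech and Ly6d stayed under 0.6 CPM, while Tcf4 measured 32.5 to 281.5 CPM, Runx2 80.5 to 216.8 CPM, Irf8 66.7 to 459 CPM and Cox6a2 0.854 to 11.6 CPM.

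The promoters were searched for the core letters of the response element. RefSeq windows (GRCm38.p6, the same assembly as mm10, 250 bases before to 50 after the start) were found for 24 of the 31 members and read on both strands for GAAANNGAAA, overlapping matches included. The letters occurred in 16 of these 24 members (66.7%), against 1079 of all 27025 genes in the table (3.99%). The letters TTCNNNGAA, the core of the element used in the response to type II interferon, occurred in 4 of the 24 (16.7%) against 9.55% of all genes. A match describes the letters in this window and is not evidence of binding. The windows below are those of Isg15, which had 3 overlapping matches, of the RNA sensor genes Ddx58 and Ddx60, whose levels had unlike layouts, and of the neighbours Rsad2 and Cmpk2, of which 1 had a match. They are written along the gene's strand, 5′ to 3′, with matches in capitals.

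Isg15 (chr4:156200769-156201068, minus strand): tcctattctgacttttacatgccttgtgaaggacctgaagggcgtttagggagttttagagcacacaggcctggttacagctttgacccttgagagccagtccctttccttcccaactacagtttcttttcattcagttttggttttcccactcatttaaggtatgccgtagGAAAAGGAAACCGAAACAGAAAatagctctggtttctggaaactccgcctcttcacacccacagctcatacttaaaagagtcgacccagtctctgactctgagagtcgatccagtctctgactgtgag
Ddx58 (chr4:40239776-40240075, minus strand): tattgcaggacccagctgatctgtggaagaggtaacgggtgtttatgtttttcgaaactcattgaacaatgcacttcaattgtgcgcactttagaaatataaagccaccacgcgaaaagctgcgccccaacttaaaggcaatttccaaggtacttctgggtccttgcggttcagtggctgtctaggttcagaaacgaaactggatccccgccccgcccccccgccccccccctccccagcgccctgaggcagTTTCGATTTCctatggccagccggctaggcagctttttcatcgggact
Ddx60 (chr8:61927837-61928136, plus strand): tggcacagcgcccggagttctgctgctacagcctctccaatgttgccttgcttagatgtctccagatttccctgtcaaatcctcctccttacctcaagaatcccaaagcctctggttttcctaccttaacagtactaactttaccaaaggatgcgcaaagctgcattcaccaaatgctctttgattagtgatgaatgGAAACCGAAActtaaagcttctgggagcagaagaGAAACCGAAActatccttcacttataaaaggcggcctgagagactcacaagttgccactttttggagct
Rsad2 (chr12:26456403-26456702, minus strand): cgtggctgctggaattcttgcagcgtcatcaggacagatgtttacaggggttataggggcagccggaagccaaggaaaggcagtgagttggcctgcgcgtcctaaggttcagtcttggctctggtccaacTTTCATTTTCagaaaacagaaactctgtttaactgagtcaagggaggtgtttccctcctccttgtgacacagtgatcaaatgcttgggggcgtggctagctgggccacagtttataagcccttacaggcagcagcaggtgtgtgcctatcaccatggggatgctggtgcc
Cmpk2 (chr12:26468965-26469264, plus strand): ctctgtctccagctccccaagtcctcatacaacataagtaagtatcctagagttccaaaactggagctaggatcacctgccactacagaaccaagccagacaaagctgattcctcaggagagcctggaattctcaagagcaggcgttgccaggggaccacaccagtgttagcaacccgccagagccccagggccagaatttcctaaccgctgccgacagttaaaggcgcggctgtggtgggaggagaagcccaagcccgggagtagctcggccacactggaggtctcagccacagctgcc

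How CCL5 exposure alters gene expression in this leukemia is the question of the treatment contrast. Where 3 values stand together below, they are in the order of replicates 1, 2 and 3. No member passed the test: 0 of 27 reached an adjusted p of 0.05 in edgeR's quasi-likelihood test over all 12174 tested genes, where the share called was 0%, and the members' adjusted p ranged from 0.365 to 0.986. One member, Ifi27l2a, had an unadjusted p under 0.05. DESeq2's Wald test called 0 members, with 1.49% of all genes called. The fitted log2 fold change (ccl5 over control) was above 0 for 17 members and below 0 for 10, with a median of 0.18, while 49.0% of all tested genes were above 0 and their median was -0.01. For 12 members the fold change lay within 1 standard error of 0. The groups did not overlap for 1 member in the direction of ccl5 (Irf7, against 8.27% of all tested genes) and for 1 in the direction of control (Oas2, against 7.49%).

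**Figure D1:**
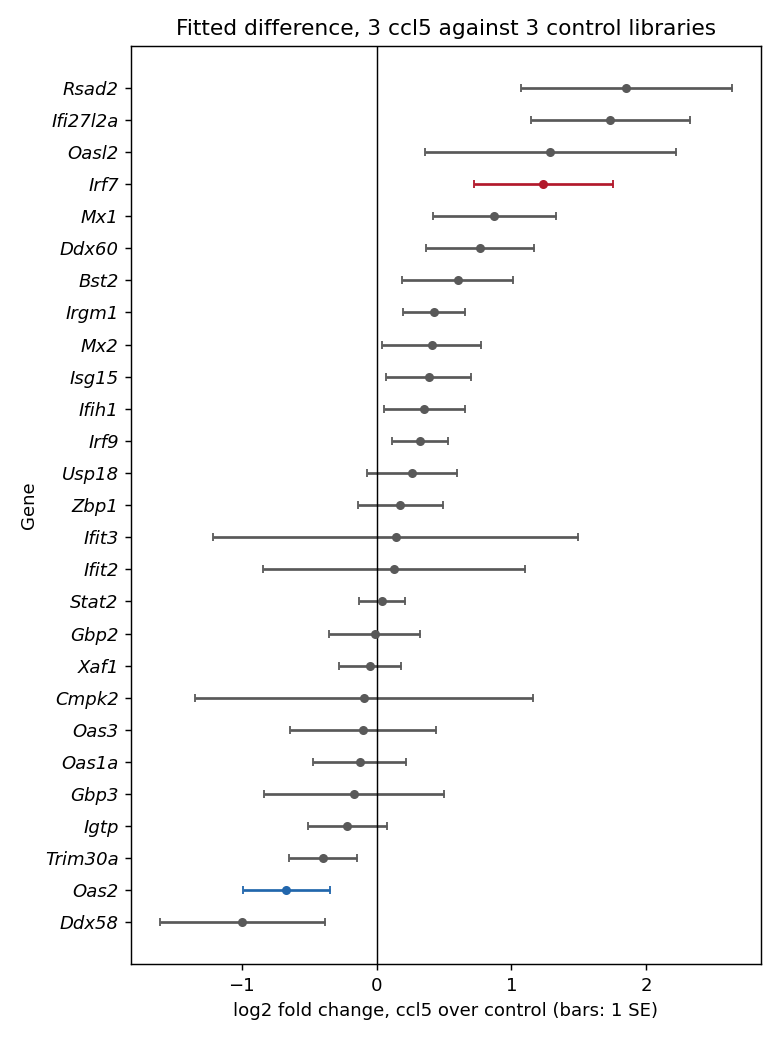
Fitted log2 fold change (x axis, ccl5 over control, 3 libraries each) of the 27 tested members (y axis); points are estimates and bars are 1 standard error. Irf7 (red) and Oas2 (blue) are the members whose groups did not overlap, and no member passed the test, with adjusted p of 0.365 or more.

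Among the transcription factors, Irf7, the factor that sustains interferon production, had no control library as high as its lowest ccl5 library. Irf7 (chromosome 7, 141263183 to 141266424, mm10) measured 10.4, 8.48 and 13.4 CPM under CCL5, against 3.17, 2.45 and 8.02 CPM for controls. Control replicate 3 nearly reached ccl5 replicate 2, so the distance between groups came mostly from the other controls. Its log2 fold change was 1.24 (SE 0.51, edgeR adjusted p = 0.367). Irf9, the DNA-binding subunit of the STAT complex, measured 39.4 to 40.8 CPM under CCL5, against 29.1, 25.9 and 40.5 CPM for controls, so control replicate 3 was at the level of the ccl5 libraries. Stat2, its partner, differed little between libraries, at 45.4 to 59.5 CPM. Its log2 fold change was 0.04 (SE 0.17).

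The cytoplasmic RNA sensors had no common layout. Ddx58, which encodes RIG-I, a sensor of viral RNA ends (chromosome 4, 40203777 to 40239825), measured 10.5, 45.4 and 10.8 CPM under CCL5, against 41.5, 44.4 and 47.5 CPM for controls. The low level was that of ccl5 replicates 1 and 3, and ccl5 replicate 2 lay within the controls' range. Its log2 fold change was -0.99 (SE 0.61, edgeR adjusted p = 0.482). Ddx60, a helicase reported to assist RIG-I, had the opposite layout, with 17.2, 7.93 and 21.9 CPM under CCL5, against 8.04, 9.90 and 9.67 CPM for controls (log2 fold change 0.77, SE 0.40). Both genes hold the response element letters, 3 bases after the start in Ddx58 and 53 and 19 bases before it in Ddx60, as printed above. Ifih1, which encodes MDA5, a sensor of long double-stranded RNA, measured 31.3 to 38.8 CPM under CCL5, against 21.2, 19.9 and 38.8 CPM for controls. Zbp1, a sensor of Z-form nucleic acid, measured 7.45 to 8.97 CPM against 6.14, 5.48 and 10.2 CPM. For these 2 genes control replicates 1 and 2 were the lowest libraries, and control replicate 3 lay at or above the ccl5 libraries.

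Of the IFIT genes, whose proteins bind foreign RNA, Ifit1 and Ifit2 were highest in ccl5 replicate 2 and control replicate 3, and Ifit3 in control replicate 3 and ccl5 replicate 3. Ifit2 measured 7.18, 32.4 and 7.73 CPM under CCL5, against 5.70, 4.85 and 32.7 CPM for controls. Each group thus had 1 high library and 2 low ones, and the log2 fold change was 0.13 with an SE of 0.97. Ifit3 had 3, 12 and 12 counts with CCL5 and 0, 3 and 30 counts in controls, and the untested Ifit1 had 8, 25 and 8 against 3, 6 and 34 counts. At these depths 3 counts correspond to 0.16 to 0.273 CPM, so the low Ifit3 values cannot be told from 0, and its SE was the largest of the members at 1.35. The mouse Ifit genes have close copies on chromosome 19, and reads shared with such copies leave single members uncertain.

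The ISG15 system was low and even. Isg15, a ubiquitin-like protein that is attached to other proteins, measured 4.98, 3.42 and 5.73 CPM under CCL5, against 3.04, 3.67 and 4.07 CPM for controls. Usp18, the protease that removes ISG15 and also restrains the interferon receptor, measured 1.83 to 2.82 CPM under CCL5, against 1.54 to 2.36 CPM for controls. Ccl5 replicates 1 and 3 were the highest libraries for both genes, and the groups overlapped for both. The log2 fold changes were 0.39 (SE 0.31) for Isg15 and 0.26 (SE 0.33) for Usp18.

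OAS proteins make the second messenger that activates RNase L, and their genes split between patterns. Oas2 (chromosome 5, 120730333 to 120749848) measured 6.83, 10.1 and 4.91 CPM under CCL5, against 10.3, 12.03 and 12.5 CPM for controls. Every ccl5 library was below every control library, although ccl5 replicate 2 and control replicate 1 were almost equal. The log2 fold change was -0.67 (SE 0.32, edgeR adjusted p = 0.399). Oas1a measured 20.3, 39.0 and 19.5 CPM under CCL5, against 23.4, 26.3 and 36.4 CPM for controls, highest in ccl5 replicate 2 and control replicate 3. Oas3 was lowest in those same libraries, at 5.92 and 5.77 CPM, and measured 13.1 to 16.8 CPM in the other 4. Oas1a lies among near-identical copies such as Oas1g (23.1 and 22.8 CPM in ccl5 replicate 2 and control replicate 3, 3.64 to 11.9 CPM elsewhere), so its reads may be shared with them. The OAS-like genes were scarce: Oasl2 had 14, 13 and 17 counts with CCL5 and 2, 2 and 20 in controls, and Oasl1 had at most 6 counts in any library.

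The MX genes, dynamin-like GTPases that block virus replication, were low. Mx1 measured 2.85, 1.40 and 3.55 CPM under CCL5, against 1.08, 1.28 and 1.87 CPM for controls (log2 fold change 0.87 with an SE of 0.46, edgeR adjusted p = 0.423). Ccl5 replicate 2 lay inside the range of the controls. Mx2 stayed between 0.49 and 0.98 CPM in every library.

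The interferon-inducible GTPases, which act on vacuoles that hold pathogens, had overlapping groups for all 4 members. Gbp3 measured 26.5, 79.5 and 25.7 CPM under CCL5, against 27.4, 29.7 and 90.8 CPM for controls. The high libraries were ccl5 replicate 2 and control replicate 3, so the group means of 43.9 ± 30.8 and 49.3 ± 35.9 CPM (SD, n = 3) differed by less than the spread within groups. Gbp2, its neighbour on chromosome 3, was lowest in these libraries, at 4.21 and 3.68 CPM against 5.82 to 6.50 CPM in the other 4. Igtp measured 9.09 to 14.8 CPM under CCL5, against 10.8 to 15.9 CPM for controls. Irgm1 measured 20.8 to 23.9 CPM under CCL5, against 13.8, 15.0 and 21.7 CPM for controls, with control replicate 3 inside the ccl5 range.

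Rsad2 and Cmpk2 are neighbours on chromosome 12 that are transcribed away from each other from starts 12763 bases apart, and both encode antiviral nucleotide enzymes. Their levels differed in layout: both were low in control replicates 1 and 2, and ccl5 replicates 1 and 3 were high for Rsad2 and low for Cmpk2. Rsad2, the gene of viperin, measured 13.8, 5.31 and 17.1 CPM under CCL5, against 1.84, 1.28 and 6.87 CPM for controls. It was highest in ccl5 replicates 1 and 3, and control replicate 3 exceeded ccl5 replicate 2. Cmpk2 measured 1.49, 10.98 and 0.545 CPM under CCL5, against 1.90, 1.54 and 10.6 CPM for controls. Its high libraries were ccl5 replicate 2 and control replicate 3, while Rsad2 was intermediate there. The log2 fold change was 1.85 for Rsad2 (SE 0.78, edgeR adjusted p = 0.367) and -0.10 for Cmpk2 (SE 1.25). The letters GAAANNGAAA were found 120 bases before the start of Rsad2, on the opposite strand, and not in the window of Cmpk2.

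The remaining effectors had varied levels. Ifi27l2a, a small mitochondrial membrane protein gene (chromosome 12, 103442167 to 103443680), had the smallest p of the members. It measured 7.11, 2.50 and 11.7 CPM under CCL5, against 1.77, 1.97 and 2.64 CPM for controls. The groups overlapped, because ccl5 replicate 2 lay below control replicate 3. Its log2 fold change was 1.73 (SE 0.59, edgeR adjusted p = 0.365). Bst2, which encodes tetherin, a protein that holds budding virus at the cell surface, measured 134, 53.1 and 138 CPM under CCL5, against 86.4, 76.6 and 51.5 CPM for controls, lowest in ccl5 replicate 2 and control replicate 3. Trim30a, a restriction factor of the TRIM family, was highest in control replicates 1 and 2, at 71.4 and 74.6 CPM, and measured 40.4 to 53.8 CPM in the other 4. Xaf1, a pro-apoptotic gene, was the most even member in relative terms, at 5.88 to 7.40 CPM. Rtp4, a receptor transport protein, had 23 and 22 counts in ccl5 replicate 2 and control replicate 3 and at most 4 elsewhere. Ifi44 had 0 counts in all 6 libraries, which allows up to 0.16 to 0.273 CPM per library.

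**Figure D2:**
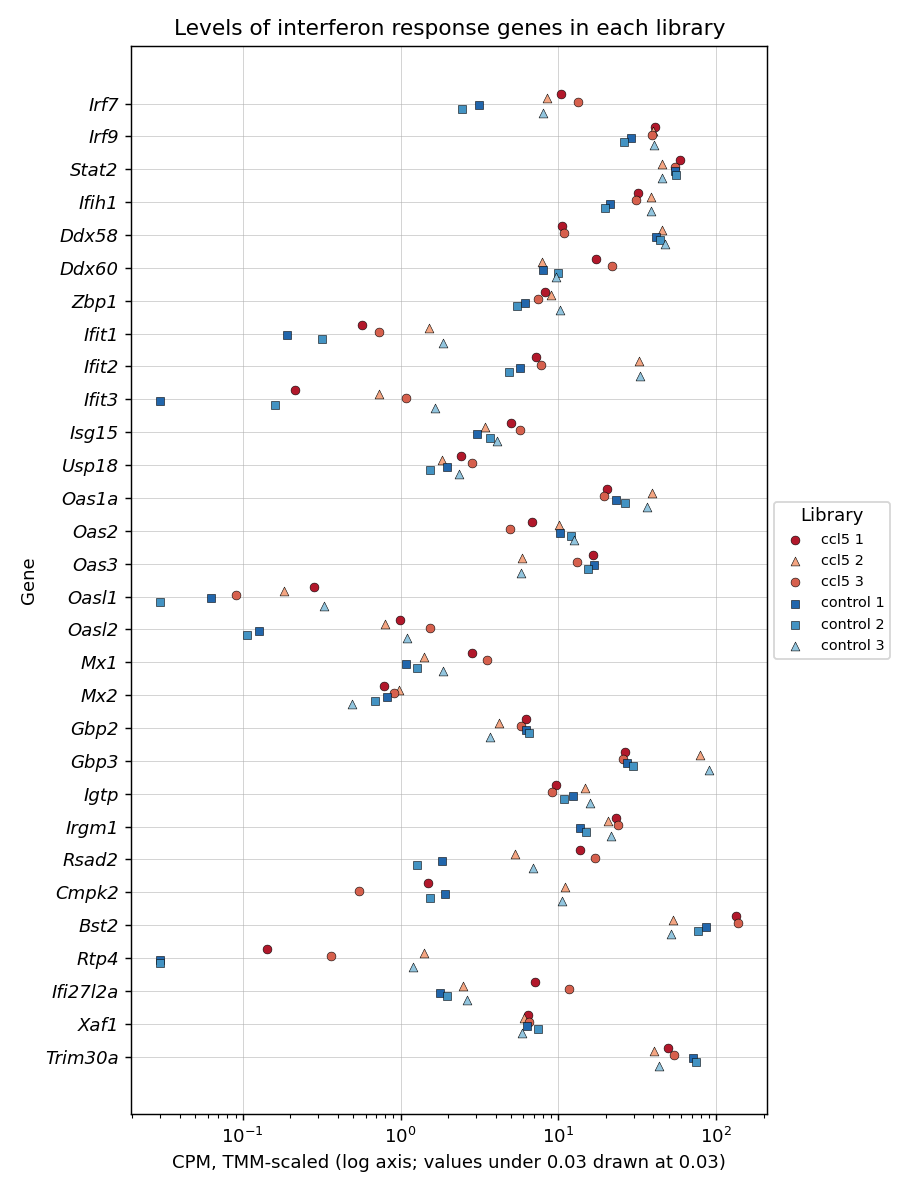
TMM-scaled CPM (x axis, log scale) of the members other than Ifi44 (y axis) in each of 6 libraries; colours mark the library and shapes mark the alike pairs. Bst2 had the highest CPM of the members except in ccl5 replicate 2 and control replicate 3 (triangles), where Gbp3 was higher. The triangles lie close together for Ifit2, Gbp3, Cmpk2 and Oas3.

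Per kilobase of exon, the mean level over the 6 libraries was highest for Bst2, at 117.5 CPM per kb, followed at a distance by Gbp3 (17.65), Trim30a (14.8), Oas1a (14.6), Irf9 (13.3) and Stat2 (11.98). The last 5 are close in this order, and the range of Gbp3 and of Oas1a across libraries spans more than the gaps between them. At the other end of the detected members were Rtp4 (0.330), Ifit1 (0.328), Mx2 (0.322), Ifit3 (0.321), Oasl2 (0.248) and Oasl1 (0.0746 CPM per kb). The head of the order thus held the effectors Bst2, Gbp3, Trim30a and Oas1a ahead of the signalling genes Irf9 and Stat2. Irf7 was lower, at 4.11 CPM per kb. The genes at the end included effectors of the OAS-like, MX and IFIT families.

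The layout of the members over the alike pairs was set beside that of all tested genes. The 2 highest libraries were ccl5 replicates 1 and 3 in 9 of 27 members (33.3%, against 30.8% of all tested genes) and ccl5 replicate 2 with control replicate 3 in 8 (29.6%, against 27.8%), both near the share of all genes. They were control replicates 1 and 2 in 2 members (7.41%, against 21.4%) and no alike pair in 8 (29.6%, against 20.1%). Control replicates 1 and 2 were the 2 lowest libraries in 11 members (40.7%, against 19.7% of all tested genes). The middle log2 level of the members, each centred on its own mean, was -0.27 and -0.30 in control replicates 1 and 2. It was between 0.10 and 0.19 in the other 4. Over all tested genes the middle level was within 0.01 of 0 in every library, which follows largely from the TMM scaling. These are descriptions of 6 libraries, and whether the lower level of control replicates 1 and 2 goes with the absence of CCL5 cannot be told apart from the other differences of this pair. Control replicate 3, which also had no CCL5, had the highest middle level, at 0.19.

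**Figure D3:**
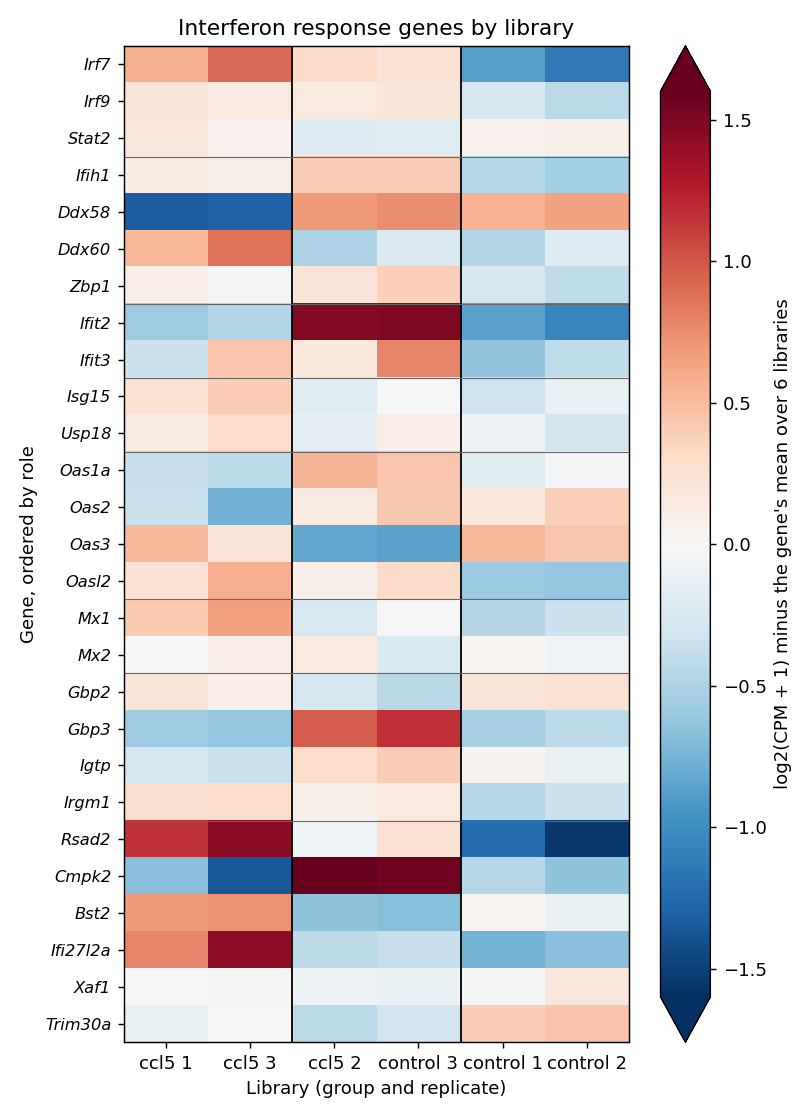
log2(CPM + 1) of the 27 tested members (rows, grouped by role) in each library (columns, alike pairs side by side), minus the gene's mean over the 6 libraries; red is above and blue below the mean, and the ends of the scale hold larger values. The columns of each pair resemble each other, also those of ccl5 replicate 2 and control replicate 3, and control replicates 1 and 2 are blue for Irf7, Ifih1, Oasl2, Irgm1 and Rsad2.

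The closest match between treatments was ccl5 replicate 2 and control replicate 3, which share a primary transplant label. There 9 of 27 members were higher in the ccl5 library, with a median log2 difference of -0.06 and a median absolute difference of 0.10. The same median absolute difference was 0.11 between ccl5 replicates 1 and 3 and 0.16 between control replicates 1 and 2. The largest difference of a member between ccl5 replicate 2 and control replicate 3 was 0.61 for Ifit3, which had few reads. In 22 of 27 members (81.5%) ccl5 replicate 2 was nearer to control replicate 3 than to either other ccl5 library, as it was in 83.5% of all tested genes. With 1 library on each side this contrast has no test. The primary transplant label is also that of ccl5 replicate 3. That library's Pearson correlation over all tested genes was 0.844 with control replicate 3 and 0.841 with ccl5 replicate 2.

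**Figure D4:**
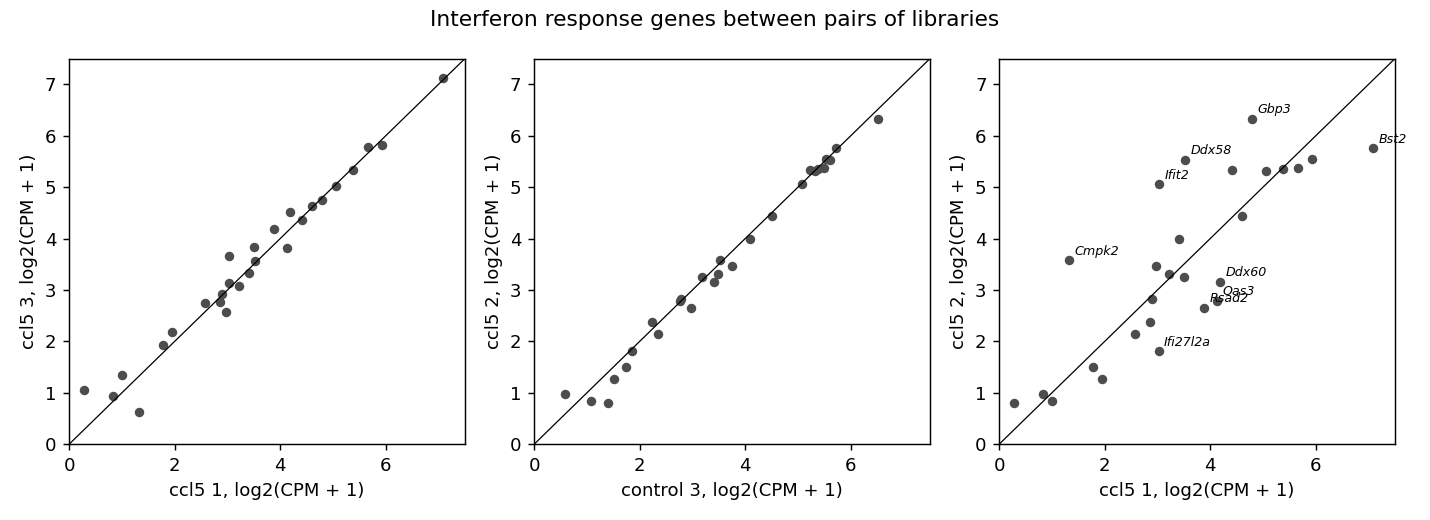
log2(CPM + 1) of the 27 tested members between ccl5 replicates 1 and 3 (left), control replicate 3 and ccl5 replicate 2 (middle), and ccl5 replicates 1 and 2 (right); the line marks equal values and genes more than 1 unit apart are named. Members lie along the line in the left and middle panels, the middle one across treatments, and scatter in the right panel within the ccl5 group.

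Leaving out 1 library changed which members were called. Without ccl5 replicate 2, edgeR called 5 of 27 members (18.5%), against 26.2% of all tested genes. These were Ddx58 (log2 fold change -2.06, adjusted p = 0.00252) and Oas2 (-0.98, adjusted p = 0.0441), lower with CCL5, and Ifi27l2a (2.14, adjusted p = 0.0154), Ddx60 (1.09, adjusted p = 0.0214) and Bst2 (0.94, adjusted p = 0.0419), higher with CCL5. This fit sets ccl5 replicates 1 and 3 against the controls, and treatment there cannot be told apart from the absence of Y-linked reads and the other features of that pair. Without control replicate 3, edgeR called 0 members, against 1.88% of all genes, and the members' median log2 fold change was 0.51. With limma-voom and sample quality weights, 16 members (59.3%) were called, 13 of them higher, against 66.5% of all genes. In both fits that called members, their share was below that of all genes.

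The ligands were near absent. Ifnb1 and Ifng had 0 counts in every library, and no interferon alpha gene exceeded 0.1 CPM. Ccl5 itself measured at most 0.494 CPM, in control replicate 3. Of the 23 ligand and induced cytokine genes found, 12 had no count at all and 3 were tested: 1 had a positive and 2 a negative fold change, with 0 called. Cxcl10, a chemokine induced by interferons, measured 0.0711, 2.32 and 0.0909 CPM under CCL5, against 7.60, 9.48 and 1.65 CPM for controls. Ccl5 replicate 2 exceeded control replicate 3, so the groups overlapped. Il15, a growth factor of NK and memory T cells, measured 13.2 to 19.3 CPM under CCL5, against 10.8 to 15.3 CPM for controls, and the death ligand gene Tnfsf10 measured 0.545 to 1.16 CPM against 0.479 to 2.64 CPM.

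The type I interferon receptor genes were abundant, with their highest levels in ccl5 replicates 1 and 3. Ifnar1 measured 342, 111 and 372 CPM under CCL5, against 123, 118 and 121 CPM for controls (log2 fold change 1.19 with an SE of 0.45, edgeR adjusted p = 0.365). Ccl5 replicate 2 lay below all 3 controls. Ifnar2 had the same layout, with 357, 140 and 375 CPM against 161, 162 and 151 CPM. The 2 receptor chains for type II interferon differed from each other. Ifngr2 had the layout of Ifnar1, with 197.8, 76.05 and 208.7 CPM against 78.59, 76.98 and 79.1 CPM. Ifngr1 did not: it measured 339.6, 387.9 and 333.6 CPM against 260.5, 265.1 and 392.6 CPM, highest in ccl5 replicate 2 and control replicate 3. Ifnar2, Ifnar1 and Ifngr2 lie near each other on chromosome 16, between 91372783 and 91564007. Of the 10 receptor and JAK-STAT genes tested, 8 had a positive and 2 a negative fold change, 0 were called and the median was 0.75. Jak1 measured 314, 184 and 332 CPM under CCL5, against 170 to 205 CPM for controls, and Tyk2 was even, at 89.5 to 99.4 CPM. Il10rb, a receptor chain shared by interleukin 10 and type III interferons, Jak2 and Stat3 had the smallest p of this list. Il10rb measured 335, 88.3 and 351 CPM against 74.3, 71.4 and 94.2 CPM, and Jak2 143, 75.0 and 163 CPM against 69.2, 65.9 and 77.3 CPM. For both, ccl5 replicate 2 lay within the range of the controls. Stat3 measured 156 to 177 CPM under CCL5, against 85.4, 87.7 and 139 CPM for controls, with no overlap.

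**Figure D5:**
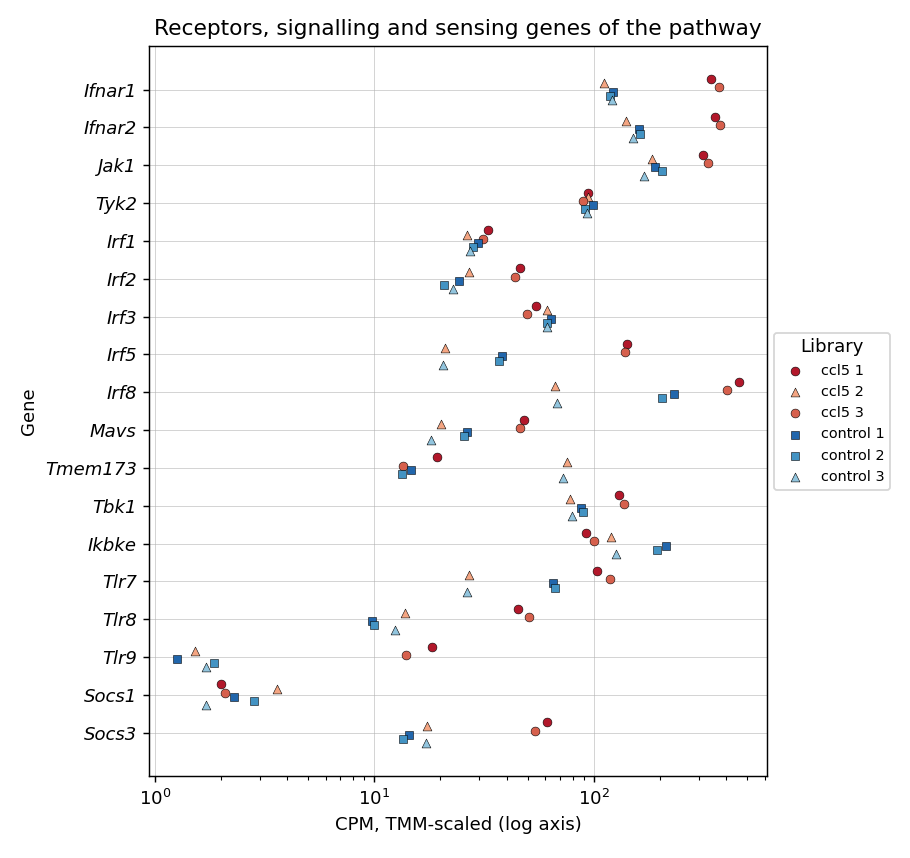
TMM-scaled CPM (x axis, log scale) of receptor, signalling, transcription factor and sensing genes (y axis) in each library, with colours for libraries and shapes for alike pairs. Circles (ccl5 replicates 1 and 3) lie to the right for Ifnar1, Ifnar2, Irf5, Tlr9 and Socs3, while ccl5 replicate 2 lies at or near the controls for these genes.

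Other interferon regulatory factors and sensing genes followed similar lines. Of 8 further genes tested, IRF genes and the IRF2-binding Irf2bp1 and Irf2bp2, 6 had a positive fold change. The median was 0.33 and 0 were called. The negative ones were Irf3 (-0.175) and Irf4 (-2.17, SE 1.24). Irf2, a factor that competes with Irf1, measured 46.2, 26.8 and 43.6 CPM under CCL5, against 24.2, 20.8 and 22.9 CPM for controls, with no overlap. Irf2bp2, an IRF2 corepressor gene, measured 262 to 301 CPM under CCL5, against 197 to 251 CPM for controls. Irf5, a factor downstream of Toll-like receptors, measured 141, 20.9 and 138 CPM against 38.0, 37.0 and 20.4 CPM. Irf8, a factor of monocytes and dendritic cells, measured 459, 66.7 and 404 CPM against 231, 203 and 68.1 CPM. Irf1 (26.5 to 33.1 CPM) and Irf3 (49.4 to 64.0 CPM), the constitutive partner of Irf7, varied little. Of 19 sensing genes tested 15 had a positive and 4 a negative fold change, with 0 called and a median of 0.43. Tlr8 measured 45.2, 13.7 and 50.5 CPM against 9.75, 9.96 and 12.4 CPM, and Tlr9, the receptor of unmethylated DNA, 18.3, 1.53 and 13.9 CPM against 1.27, 1.86 and 1.70 CPM. Ikbke, a kinase that activates IRF3 and IRF7, was lower in every ccl5 library, at 92.5 to 120 CPM against 127 to 213 CPM. These IRF and Toll-like receptor genes are also expressed in monocytes. The sum of monocyte and macrophage markers was highest in ccl5 replicates 1 and 3 as given above, although Ccr2 was not. The part of that in these values was not tested.

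Feedback genes and the wider set of interferon-stimulated genes had no common direction. Of 9 feedback genes 3 had a positive and 6 a negative fold change, with 0 called. Socs3, an inhibitor of cytokine signalling, measured 60.9, 17.4 and 53.8 CPM under CCL5, against 14.4, 13.5 and 17.3 CPM for controls, and Ptpn1, a phosphatase of JAK kinases, 255, 127 and 236 CPM against 88.8, 88.5 and 119 CPM. For both genes ccl5 replicate 2 was just above control replicate 3. Ptpn2, a related phosphatase, measured 37.4 to 70.7 CPM under CCL5, against 55.1 to 76.0 CPM for controls. Of 74 other interferon-stimulated genes tested, 37 had a positive and 37 a negative fold change, with 0 called and a median of -0.001. Those with the smallest p were Lgals3bp, a secreted glycoprotein gene (67.2 to 71.8 CPM in ccl5 replicates 1 and 3, 15.2 in ccl5 replicate 2, 8.09 to 14.8 in controls), Ms4a6d (199.6, 57.9 and 233 against 25.9, 27.0 and 57.2 CPM) and Tapbp, which loads peptides on MHC class I (257, 112 and 217 against 88.4 to 93.6 CPM). All of these were higher with CCL5. The groups did not overlap for 4 of the 74 in the direction of ccl5 (against 8.27% of all tested genes). They did not overlap for 10 in the direction of control (against 7.49%). Of 7 GTPase genes other than the members 3 had a positive and 4 a negative fold change, with 0 called. Ifi47 is counted both here and among the 74 genes. It measured 3.49 to 5.43 CPM under CCL5, against 25.1, 27.0 and 5.05 CPM for controls, so control replicate 3 again lay with the ccl5 libraries. Gbp6 measured 0.142 to 2.26 CPM against 2.97 to 6.18 CPM, and Gm12250 2.81 to 4.48 CPM against 1.22 to 2.75 CPM.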

How the data were processed

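The authors deposited raw read counts per gene, made with featureCounts 1.5.1 from primary alignments with the UCSC mm10 annotation and no strand option, per the file headers. The submitters' processing notes also list DESeq2, TopHat, Bowtie and Trimmomatic; their settings are not given in the sources used here. Length is the deposited exon length. No exon of a member overlapped another gene of the table, and reads with several alignments were counted at the primary one. Groups came from the titles. The count columns carry only the letters a to f and were matched to samples by the last letter of each title. Libraries of a group differed by more than sampling noise (mean chi-square per gene of at least 3.55) and were kept apart.

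Counts were tested with edgeR 4.0.16 (R 4.3.3): TMM, filterByExpr with a minimum count of 10, quasi-likelihood F test, two-sided, Benjamini-Hochberg over 12174 genes, threshold 0.05, no block. The SE is the absolute log2 fold change over the square root of F. CPM uses TMM-scaled library sizes, and log2 levels and correlations add a pseudocount of 1. The script was tested on simulated data. Alternatives included DESeq2 1.42.0 and limma 3.58.1. Every member is named, with values in each library for those of smallest p, highest level or no overlap. Of every pathway list the 3 genes of smallest p and a fixed set are named, while other values given were chosen after they were seen. The members and lists were chosen with earlier results of these data known. Some genes of these lists are not reported here.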

Additional observations from a re-analysis of the deposited data

How the results depend on the processing

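Over 402 results of single members under another setting, the direction and side of the threshold were kept in 333. The direction turned in 48 and a call appeared in 21. In 27 of the 402 only the adjusted p threshold was changed, to 0.1, so the direction could not turn. The count of all genes called went from 0 to 192 with DESeq2's Wald test and 8097 with limma-voom and quality weights, and lay between 0 and 3299 when 1 library was left out. The count of members called went from 0 to 16 with limma-voom and lay between 0 and 5 without 1 library. The members' median log2 fold change, 0.176 as reported, was 0.48 with limma-voom, 0.041 with total counts, 0.062 with primary transplant libraries only and 0.12 to 0.511 without 1 library. With total counts and no TMM, 51.9% of members and 35.0% of all genes had a higher fold change and the median of all genes was -0.17, and the sign turned for Stat2 (-0.15), Zbp1 (-0.007) and Ifit3 (-0.113). With primary transplant libraries only (a lone control) it turned for Irf9 (-0.054), Ifih1 (-0.161), Zbp1 (-0.329), Ifit2 (-0.713), Ifit3 (-0.872), Usp18 (-0.044), Oas3 (0.698), Gbp2 (0.426), Xaf1 (0.082) and Trim30a (0.089). With Y-linked libraries only (a lone ccl5 library) it turned for Stat2 (-0.195), Ddx58 (0.028), Ddx60 (-0.218), Isg15 (-0.076), Usp18 (-0.099), Oas1a (0.441), Mx1 (-0.009), Gbp3 (0.686), Igtp (0.183), Cmpk2 (1.23) and Bst2 (-0.433). A lone library is assumed to vary like the others. Leaving out 1 library gave ranges that cross 0 for Cmpk2 (-2.17 to 1.355), Gbp2 (-0.225 to 0.145), Gbp3 (-0.917 to 0.635), Ifit2 (-0.957 to 1.595), Ifit3 (-0.413 to 2.879), Oas1a (-0.523 to 0.096), Oas3 (-0.439 to 0.23), Stat2 (-0.039 to 0.145) and Xaf1 (-0.108 to 0.05). The cause of these changes was not tested. Low counts limit Ifit1, Ifit3, Oasl1, Oasl2, Mx2 and Rtp4.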
